A study of Mus musculus with 5 samples.

Results

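The genes described here are 10 genes through which the distal nephron handles calcium and magnesium: *Trpv5*, *Trpv6*, *Calb1*, *Slc8a1*, *Atp2b1*, *Trpm6*, *Pvalb*, *Egf*, *Cnnm2* and *Casr*. They were chosen by symbol and role, with earlier results of these data known but by no threshold on a value, from the 24421 gene symbols with deposited counts. All 10 were expressed highly enough to be tested, among 13874 genes tested. RNAseq of the kidney cortex covered 3 *Fnip1* null mice (*Fnip1*-/-; mice 8637, 9210 and 9121) and 2 wildtype mice (*Fnip1*+/+ in the labels; mice 9055 and 9056), with 1 library per mouse. All 5 mice were on the C57BL6J background, no treatment is given in the labels, and the age and sex of single mice are not given there. The null allele came from chemical mutagenesis with ENU and is carried in all cells of the animal, so the cells in which a difference arose cannot be told from the genotype. The text of the study also calls the controls *Fnip1*+/-. *Fnip1* encodes folliculin interacting protein 1, a partner of the tumour suppressor folliculin in the control of AMPK and mTOR signaling.

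In the late distal convoluted tubule and the connecting tubule, calcium is reabsorbed through the cell. It enters from the urine through the channels TRPV5 and TRPV6, is carried across the cell by calbindin-D28k (*Calb1*), and leaves towards the blood through the sodium-calcium exchanger NCX1 (*Slc8a1*) and the calcium pump PMCA1 (*Atp2b1*). Magnesium enters the distal convoluted tubule through TRPM6, whose activity is raised by epidermal growth factor (*Egf*), while parvalbumin (*Pvalb*) binds calcium and magnesium in the early distal convoluted tubule and CNNM2 lies in its basolateral membrane. The calcium-sensing receptor (*Casr*), found mainly in the thick ascending limb, lowers reabsorption of both ions when blood calcium is high.

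*Trpv5* was the only one of the 10 genes that passed both thresholds, an FDR of 5% and 2-fold, in edgeR's quasi-likelihood test, with a 2.40-fold higher mean in *Fnip1* null versus wildtype kidney tissue. *Trpv6*, *Calb1*, *Trpm6* and *Casr* were above both wildtype mice in all 3 *Fnip1* null mice without passing that threshold. *Slc8a1*, *Atp2b1*, *Pvalb*, *Egf* and *Cnnm2* overlapped between the genotypes. Among all genes tested, 22.9% were above both wildtype mice in all *Fnip1* null mice and 23% were below both, so a count of 5 of 10 is near the background, although all 5 lay on the higher side. The plot of every member by mouse shows this split.

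**Figure D1:**
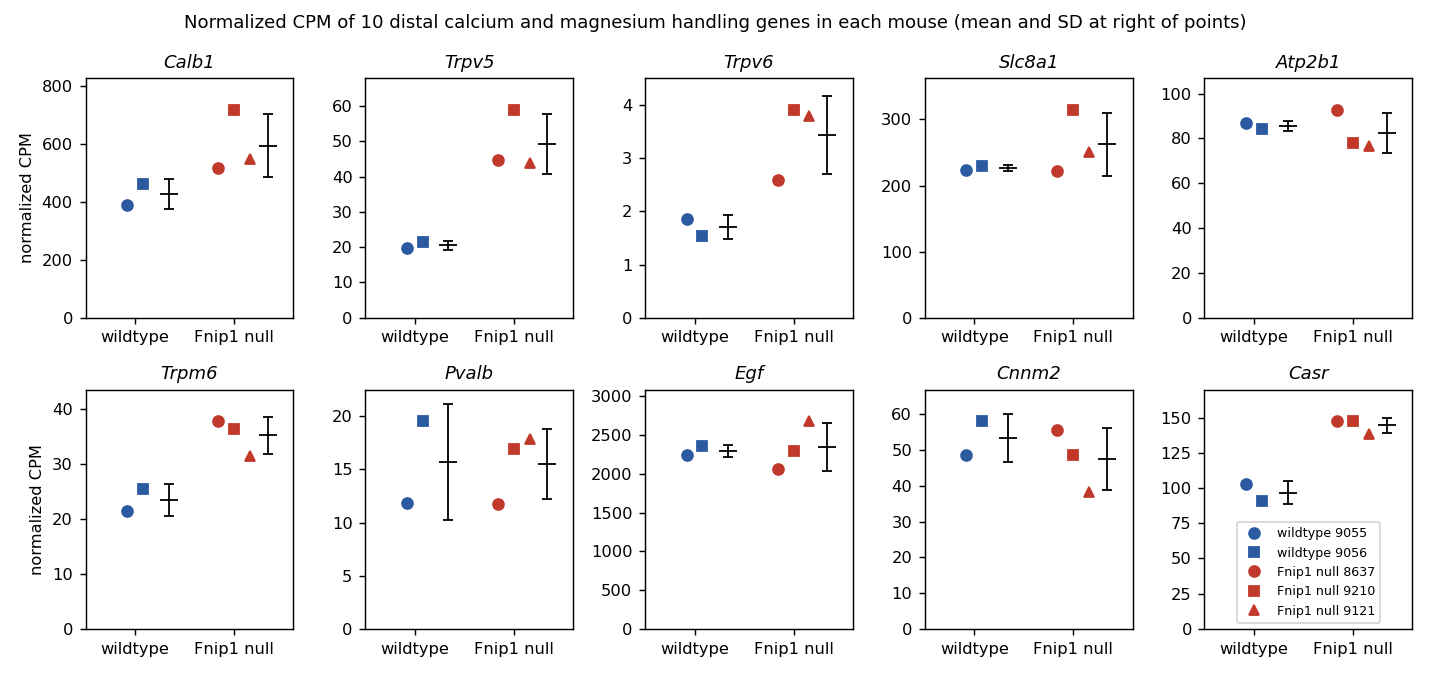
Normalized CPM (y axes, linear, starting at 0, a separate scale for each gene) of the 10 genes in each of the 3 *Fnip1* null and 2 wildtype mice, with 1 point per mouse and, to the right of the points, a black dash and bar for the group mean and SD. The *Fnip1* null points lie above both wildtype points for *Trpv5*, *Trpv6*, *Calb1*, *Trpm6* and *Casr*, and overlap them for the other 5 genes.

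Between 15799114 and 19132145 reads were counted on genes per mouse, so 3 counts correspond to 0.158 to 0.186 normalized CPM, counts scaled to a common library size with TMM factors. *Fnip1* itself measured 21.0, 16.9 and 16 normalized CPM in mice 8637, 9210 and 9121, all *Fnip1* null, against 51.7 and 48.6 in the wildtype mice. Mouse 9121 had 5954 counts of the X-inactivation transcript *Xist* against 3 to 24 in the other 4 mice, and 0 counts of the Y-linked genes *Ddx3y*, *Kdm5d* and *Uty*. The other 4 mice had 17.3 to 52.1 normalized CPM of these 3 Y-linked genes, so mouse 9121 carried a female pattern and the others a male one. No 2 libraries agreed within sampling noise, and log2 CPM correlated across genes at 0.972 to 0.992 between mice of 1 genotype. *Fnip1* null mouse 8637 correlated with wildtype mouse 9055 at 0.987, as closely as with *Fnip1* null mouse 9210 (0.986) and more closely than with mouse 9121 (0.972), so by this measure its library was as near to wildtype as to its own group. Each library came from a separate mouse, and with 3 against 2 mice the smallest p of an exact permutation test is 0.1. Because the tissue was measured in bulk, fewer cells of a type and less RNA per cell cannot be told apart in any value given here.

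*Trpv5* and *Trpv6* are neighbours on chromosome 6. *Trpv5* (ENSMUSG00000036899) runs from 41652173 to 41680769 and *Trpv6* (ENSMUSG00000029868) from 41620624 to 41636405 in GENCODE M21 on GRCm38, both on the minus strand, with 15767 bases between them. The sequences before their starts are printed because these are the 2 members with the largest fold changes. RefSeq promoter windows on GRCm38.p6, from 250 bases before to 50 bases after a start, matched 9 of the 10 members (all but *Calb1*) with 12 windows. The bases that precede the annotated gene follow, 5′ to 3′ on the minus strand, with capitals for AGGTCA, a core motif of nuclear receptor binding, or its reverse complement.
Trpv6, chr6:41636406-41636655: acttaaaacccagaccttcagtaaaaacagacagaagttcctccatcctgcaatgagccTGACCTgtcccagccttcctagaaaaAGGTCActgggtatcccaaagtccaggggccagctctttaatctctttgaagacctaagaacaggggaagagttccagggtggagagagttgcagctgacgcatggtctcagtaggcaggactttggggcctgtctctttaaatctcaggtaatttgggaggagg
Trpv5, chr6:41680770-41680973: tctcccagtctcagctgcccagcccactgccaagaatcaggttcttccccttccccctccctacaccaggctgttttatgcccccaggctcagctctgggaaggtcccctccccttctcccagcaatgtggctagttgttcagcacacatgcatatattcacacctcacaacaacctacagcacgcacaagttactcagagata
The *Trpv6* window held AGGTCA at 165 bases before the start and its reverse complement at 191 bases. AGGTCA, searched on both strands, was in 16.3% of 32851 promoter windows of the mouse genome and in 1 of the 12 member windows. The *Trpv5* window held no AGGTCA, and had TATAAA, the TATA box, 43 bases before the RefSeq start, past the end of the printed stretch. TATAAA was in 13.6% of all windows and in 1 of the 12. CACGTG, an E-box, was in 7.15% of all windows and in 1 of the 12, that of *Atp2b1*. These motifs do not overlap in their letters, and a match says only that the letters are in the window.

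Levels of different genes were compared per kilobase of exon, as RPKM computed from normalized CPM. In wildtype tissue *Egf* was the most abundant of the 10 genes, at 204 ± 7.04 RPKM (SD, n = 2), followed by *Calb1* at 87.8 ± 10.5 RPKM. *Casr* had 20.5 ± 1.78 RPKM, *Pvalb* 15.1 ± 5.22, *Slc8a1* 12.1 ± 0.249 and *Cnnm2* 10.3 ± 1.31. Lower came *Trpv5* at 6.34 ± 0.382 RPKM, *Atp2b1* at 5.62 ± 0.140, *Trpm6* at 3.04 ± 0.378 and *Trpv6* at 0.433 ± 0.0574. Of the calcium channels, *Trpv5* was thus far more abundant than *Trpv6*. Among neighbours in this order, only the ranges of *Pvalb* and *Slc8a1* overlapped between the wildtype mice. *Trpv5* stood at rank 7 in wildtype tissue and at rank 4 in *Fnip1* null tissue, where it reached 15.2 ± 2.61 RPKM (SD, n = 3) but overlapped *Pvalb* (14.9 ± 3.14) and *Slc8a1* (14.0 ± 2.53), at ranks 5 and 6. The lower ranks depend on the gene model, because with the longest coding transcript in place of all exons *Atp2b1* moved from rank 8 to rank 6 and *Trpv5* from 7 to 8.

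Of the 10 members, 1 passed the quasi-likelihood test at an FDR of 5% and 2-fold, against 0.533% of all genes tested in either direction, and the same 1 passed the FDR alone, against 0.735% of all genes. With edgeR's exact test and the FDR alone, 3 members were higher (*Trpv5*, *Casr* and *Trpm6*), against 6.18% of all genes, and none was lower. At an unadjusted p under 0.05 in the quasi-likelihood test, 5 members were higher, against 13.9% of all genes. All 3 *Fnip1* null mice were above both wildtype mice in 5 members, against 22.9% of all genes, and below both in 0 members, against 23% of all genes. The median log2 fold change was 0.35 over the members and 0.00312 over all genes tested, and 7 of 10 members had a positive value against 50.5% of all genes. The plot of fold changes gives each value with its interval.

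**Figure D2:**
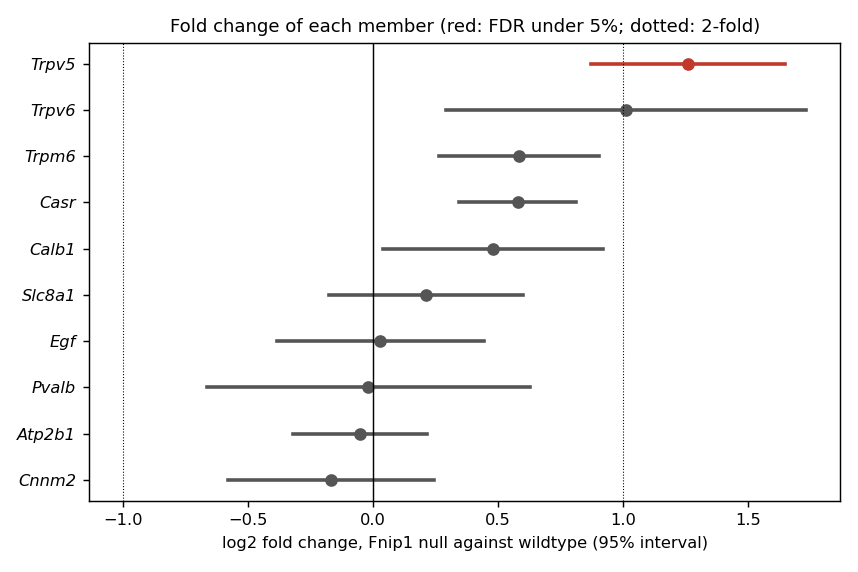
Log2 fold change of *Fnip1* null versus wildtype (x axis) for the 10 genes, with points for the estimates of edgeR's quasi-likelihood fit, lines for their 95% confidence intervals (red at an FDR under 5%) and dotted lines at a 2-fold change. The interval of *Trpv5* runs from 0.871 to 1.65 and stands highest, and the intervals of *Slc8a1*, *Atp2b1*, *Pvalb*, *Egf* and *Cnnm2* include 0.

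*Trpv5* encodes the channel through which calcium enters distal tubule cells. It measured 44.8, 59.1 and 44.0 normalized CPM in the *Fnip1* null mice (in the order 8637, 9210, 9121, kept throughout) and 19.7 and 21.4 in the wildtype mice (9055, then 9056). The lowest *Fnip1* null mouse was thus above the higher wildtype mouse by more than the spread within either genotype. The means were 49.3 ± 8.48 (SD, n = 3) and 20.6 ± 1.24 (SD, n = 2), a log2 fold change of 1.26 (SE 0.161, adjusted p = 0.0395, edgeR quasi-likelihood test with Benjamini-Hochberg adjustment). With the exact test of edgeR, *Trpv5* had an adjusted p of 1.37e-07. The call rests on single mice: without *Fnip1* null mouse 9210 the log2 fold change was 1.11 and the adjusted p 0.127, without wildtype mouse 9055 they were 1.20 and 0.212, and without wildtype mouse 9056 they were 1.32 and 0.506 in edgeR's quasi-likelihood test. Leaving out a wildtype mouse leaves 1, whose spread is then taken to be that of the *Fnip1* null mice. Without mouse 9121 the values were 1.34 and 0.0219, and without mouse 8637 they were 1.33 and 0.00851.

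**Figure D3:**
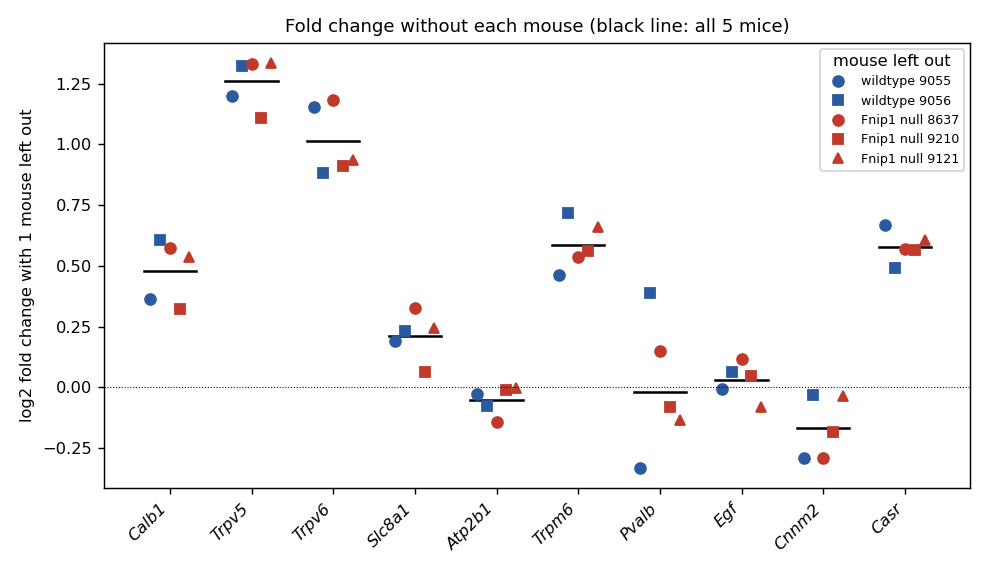
Log2 fold change of *Fnip1* null versus wildtype (y axis) for the 10 genes, as a black line with all 5 mice and as a symbol for the fit without each mouse (blue without a wildtype mouse, red without a *Fnip1* null mouse). *Trpv5* stayed between 1.11 and 1.34 in these fits, whereas *Pvalb* ran from -0.33 to 0.39.

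*Trpv6*, the second calcium channel of this pathway, was a low-count gene here. It had 44, 66 and 72 counts in the *Fnip1* null mice and 30 and 27 in the wildtype mice, and the counting error alone was 11.8% to 19.2% per mouse. In normalized CPM these were 2.59, 3.92 and 3.80 against 1.86 and 1.54. All *Fnip1* null mice were above both wildtype mice. The log2 fold change was 1.01 (SE 0.298, adjusted p = 0.120, edgeR quasi-likelihood test), of a size near that of *Trpv5* and not past the FDR. The other tools gave adjusted p-values of 0.0524 (edgeR exact test), 0.0439 (edgeR likelihood ratio test) and 0.0845 (DESeq2). Without mouse 8637 the log2 fold change was 1.18 and the quasi-likelihood adjusted p 0.0325.

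*Calb1* (ENSMUSG00000028222; chromosome 4, 15881264 to 15908064) encodes calbindin-D28k, the protein that ferries calcium across the cell. It measured 517, 717 and 546 normalized CPM in the *Fnip1* null mice and 389 and 462 in the wildtype mice. The *Fnip1* null values were all higher, with mouse 8637 the nearest to wildtype and mouse 9210 the farthest. The means of 593 ± 108 (SD, n = 3) and 425 ± 51.0 (SD, n = 2) gave a log2 fold change of 0.48 (SE 0.182, adjusted p = 0.176, edgeR quasi-likelihood test), with a 95% confidence interval from 0.0413 to 0.918. Without mouse 9210 it was 0.32.

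*Slc8a1* (ENSMUSG00000054640; chromosome 17, 81373105 to 81738377) encodes NCX1, the exchanger through which most calcium leaves the cell. Its values of 222, 315 and 251 normalized CPM in the *Fnip1* null mice overlapped 223 and 230.0 in the wildtype mice, as mouse 8637 was just below both. The log2 fold change was 0.21 with a 95% confidence interval from -0.175 to 0.60 (adjusted p = 0.444, edgeR quasi-likelihood test), an interval that includes both no change and a moderate increase. *Atp2b1* (ENSMUSG00000019943; chromosome 10, 98914406 to 99026143), the plasma membrane calcium pump, measured 92.9, 77.9 and 76.7 against 87.0 and 84.0 normalized CPM. Its *Fnip1* null mice lay on both sides of the wildtype pair, and the log2 fold change was -0.05 with an interval from -0.321 to 0.215, so an increase of the size of that of *Trpv5* lies outside it. When libraries were scaled by size alone, without TMM, the log2 fold change of *Atp2b1* was 0.10.

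Among the magnesium genes of the 10, *Trpm6* had the largest difference. *Trpm6* (ENSMUSG00000024727; chromosome 19, 18749983 to 18892511), the magnesium channel of the distal convoluted tubule, measured 37.9, 36.4 and 31.4 normalized CPM in the *Fnip1* null mice and 21.4 and 25.5 in the wildtype mice. All *Fnip1* null mice were higher, although the gap of the nearest pair was smaller than the range of the *Fnip1* null mice. Means of 35.2 ± 3.37 (SD, n = 3) and 23.5 ± 2.92 (SD, n = 2) gave a log2 fold change of 0.58 (SE 0.133, adjusted p = 0.0872, edgeR quasi-likelihood test), and edgeR's exact test gave an adjusted p of 0.0178. Without mouse 8637 the quasi-likelihood adjusted p was 0.0437.

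*Egf* (ENSMUSG00000028017; chromosome 3, 129677565 to 129755316), the growth factor that stimulates TRPM6, measured 2061, 2293 and 2683 normalized CPM in the *Fnip1* null mice and 2244 and 2356 in the wildtype mice. The wildtype mice lay within the *Fnip1* null range, and the log2 fold change was 0.03 (95% confidence interval from -0.385 to 0.442, adjusted p = 0.933, edgeR quasi-likelihood test). The highest value was in mouse 9121, and without it the log2 fold change was -0.08. Of the 50-base stretches in protein-coding *Egf* transcripts, 19.2% also occur, on either strand, in transcripts of other annotated genes. Part of the *Egf* reads may therefore have been left out of the counts.

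*Cnnm2* (ENSMUSG00000064105; chromosome 19, 46761596 to 46880192), a basolateral membrane protein needed for magnesium reabsorption, measured 55.5, 48.6 and 38.4 against 48.6 and 58.2 normalized CPM. Its groups overlapped, with mouse 9121 the lowest, and the log2 fold change was -0.17 (interval from -0.581 to 0.243, adjusted p = 0.561, edgeR quasi-likelihood test). *Pvalb* (ENSMUSG00000005716; chromosome 15, 78191114 to 78206400), the calcium buffer of the early distal convoluted tubule, measured 11.8, 16.9 and 17.9 against 11.9 and 19.5 normalized CPM. The wildtype mice differed from each other more than the group means did. The log2 fold change of *Pvalb* was -0.02 with an interval from -0.664 to 0.627, and its sign changed with the mouse left out.

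*Casr* (ENSMUSG00000051980; chromosome 16, 36493696 to 36562141), the receptor that senses blood calcium, measured 148, 147 and 139 normalized CPM in the *Fnip1* null mice and 103 and 90.8 in the wildtype mice. The *Fnip1* null mice lay close together and well above the wildtype pair. Means of 144 ± 5.19 (SD, n = 3) and 96.8 ± 8.39 (SD, n = 2) gave a log2 fold change of 0.58 (SE 0.0971, adjusted p = 0.0622, edgeR quasi-likelihood test), and the adjusted p was 0.00370 in edgeR's exact test. When libraries were scaled by size alone, the quasi-likelihood adjusted p of *Casr* was 0.0457. With TMM it was 0.0173 without mouse 8637, 0.242 without mouse 9210 and 0.0553 without mouse 9121. In the fit without mouse 8637, 2736 of the 13874 genes tested passed an FDR of 5%. The log2 fold change of *Casr* was 0.67 without wildtype mouse 9055 and 0.49 without wildtype mouse 9056. Markers of the thick ascending limb, where *Casr* is mainly found, summed to 7013 to 10635 normalized CPM in the *Fnip1* null mice. In the wildtype mice they summed to 6835 to 7927, so the ranges overlapped. The sums were highest in mice 9121 and 9055, as were medullary marker sums (422 and 496, against 287 to 343 in the other mice). Of the medullary markers, *Slc14a2* differed most, at 99.7 and 81.5 normalized CPM in mice 9121 and 9055. It measured 0.824, 1.89 and 16.1 in mice 8637, 9056 and 9210. Of the thick ascending limb markers, *Kcnj1* was above both wildtype mice in all *Fnip1* null mice and *Cldn10* below both. The part of this segment in the *Casr* values was not tested.

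Because several of these genes share a tubule segment, each was also expressed relative to *Slc12a3*, the thiazide-sensitive sodium chloride cotransporter that marks the distal convoluted tubule. *Slc12a3* measured 959, 970 and 1073 normalized CPM in the *Fnip1* null mice and 666 and 771 in the wildtype mice, all higher in *Fnip1* null tissue (log2 fold change 0.48, adjusted p = 0.117, edgeR quasi-likelihood test). *Trpv5* counts were 4.67%, 6.09% and 4.10% of *Slc12a3* counts in mice 8637, 9210 and 9121, against 2.95% and 2.78% in wildtype mice 9055 and 9056. *Trpv5* was thus higher in all *Fnip1* null mice also on this scale, by 0.77 in log2 (two-sided exact permutation test, p = 0.1, the smallest the design allows; 0.333 after Benjamini-Hochberg adjustment over the 10 members). It was the 1 member with a ratio above both wildtype mice in all *Fnip1* null mice, against 4.22% of all genes.

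The other members that had been higher lost the separation on this scale. The difference of the log2 ratio was -0.01 for *Calb1*, 0.11 for *Trpm6*, 0.10 for *Casr* and 0.49 for *Trpv6*, and the groups overlapped for each. It was -0.28 for *Slc8a1*, which also overlapped. *Atp2b1* (-0.54), *Pvalb* (-0.48), *Egf* (-0.46) and *Cnnm2* (-0.66) were below both wildtype mice in all *Fnip1* null mice, 4 of 10 members against 65.4% of all genes. That background is high because *Slc12a3* itself was higher in *Fnip1* null tissue.

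**Figure D4:**
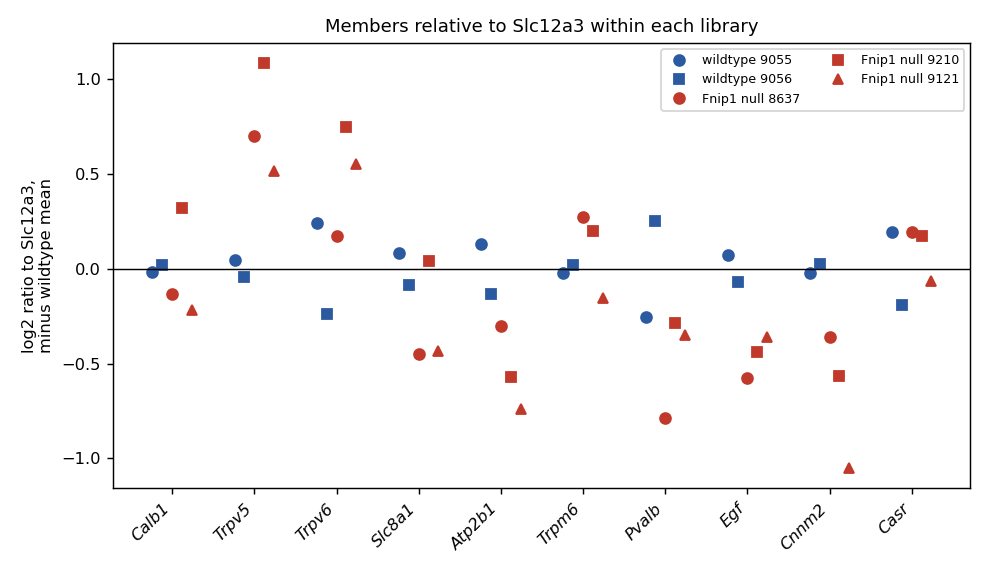
Log2 ratio of the counts of each of the 10 genes to the *Slc12a3* counts of the same mouse, relative to the wildtype mean (y axis), with 1 point per mouse by genotype. *Trpv5* lies above the wildtype mice in all 3 *Fnip1* null mice, by 0.77 on average, and *Calb1*, *Trpm6* and *Casr* lie near 0.

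Ratios of *Trpv5* to other calcium genes, chosen after values were seen, are given as a description. *Trpv5* counts were 8.66%, 8.23% and 8.06% of *Calb1* counts in the *Fnip1* null mice and 5.05% and 4.64% in the wildtype mice. Relative to the exchanger *Slc8a1* they were 20.1%, 18.8% and 17.5% against 8.81% and 9.32%. Both ratios were higher in every *Fnip1* null mouse, with a narrow spread inside each genotype (two-sided exact permutation test, p = 0.1 for each, the smallest possible). Relative to *S100g*, which encodes the other renal calbindin, calbindin-D9k, *Trpv5* was at 6.50%, 5.10% and 5.86% against 4.86% and 4.32%, a smaller separation without overlap (two-sided exact permutation test, p = 0.2). Relative to *Trpv6*, the other entry channel, the groups overlapped, at 1727%, 1506% and 1158% against 1057% and 1389% (p = 0.4, same exact permutation test).

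Other genes of the same pathways were taken from 4 lists with 47 genes, of which 41 could be tested. Their log2 fold changes were positive for 30 and negative for 11, with a median of 0.17. Only *Rragd* passed an FDR of 5% in edgeR's quasi-likelihood test, and 10 passed it in edgeR's exact test, against 9.82% of all genes in either direction. All 3 *Fnip1* null mice were above both wildtype mice for 17 of the 41 and below both for 4, against 22.9% and 23% of all genes.

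In the list of related channels, pumps and binding proteins, 10 of 14 genes were tested, 9 had a positive value and 0 passed the quasi-likelihood test, while 2 higher and 1 lower passed the exact test. *S100g* measured 689, 1158 and 751 normalized CPM in the *Fnip1* null mice and 405 and 496 in the wildtype mice (log2 fold change 0.94, adjusted p = 0.108). *Slc41a3*, a magnesium transporter gene, had a log2 fold change of 0.83 (adjusted p = 0.0910), and its relative *Slc41a2* had -0.66 (adjusted p = 0.0933). These members of 1 family thus had opposite signs, and neither passed the quasi-likelihood test. The *Slc8a1* relatives *Slc8a2* and *Slc8a3* were too low to be tested.

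In the list of thick ascending limb reabsorption, 8 of 9 tested genes had a positive value, 0 passed the quasi-likelihood test and 2 passed the exact test, both higher. *Bsnd*, which encodes barttin, had a log2 fold change of 0.65 (adjusted p = 0.0990, edgeR quasi-likelihood test). *Cldn10*, which encodes a tight junction protein of the sodium pathway, was below both wildtype mice in all *Fnip1* null mice, at 131, 131 and 186 against 214 and 200.3 normalized CPM (log2 fold change -0.47, adjusted p = 0.168).

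In the list of salt and magnesium handling in the distal convoluted tubule, 7 of 11 tested genes had a positive value, 1 passed the quasi-likelihood test and 4 passed the exact test, all higher. *Rragd*, which encodes the Rag GTPase RagD, measured 209, 220 and 198 normalized CPM in the *Fnip1* null mice against 103 and 106 in the wildtype mice. Its groups stood far apart, with a log2 fold change of 1.0 (adjusted p = 0.0313, edgeR quasi-likelihood test). RagD is a partner of folliculin in mTORC1 control at the lysosome, and mutations in the human gene cause renal magnesium wasting. *Stk39*, the kinase SPAK that activates the sodium chloride cotransporter, had a log2 fold change of 0.72 (adjusted p = 0.0633). *Egfr*, the receptor for EGF, had -0.43 (adjusted p = 0.398) with overlapping groups.

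In the list of hormonal and trafficking control, 6 of 11 tested genes had a positive value, 0 passed the quasi-likelihood test and 1 passed the exact test, on the lower side. The vitamin D receptor gene *Vdr* measured 266, 211 and 274 normalized CPM in the *Fnip1* null mice against 345 and 409 in the wildtype mice (log2 fold change -0.59, adjusted p = 0.103, edgeR quasi-likelihood test). The parathyroid hormone receptor gene *Pth1r* had -0.44 (adjusted p = 0.140). Both receptors were thus below both wildtype mice in all *Fnip1* null mice, as were 23% of all genes tested. In bulk cortex, the tubule segment that these receptor values came from cannot be told. A relation to *Trpv5*, which vitamin D and parathyroid hormone are known to raise, was not tested. *Cyp27b1*, which encodes the enzyme that activates vitamin D, measured 2.71, 9.92 and 2.37 against 1.24 and 1.94, with mouse 9210 far above the rest (log2 fold change 1.64, adjusted p = 0.223). *Sgk1*, an aldosterone-responsive kinase gene, had 0.70 (adjusted p = 0.146).

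Marker genes of cell types moved with genotype beside the members. Distal convoluted tubule markers summed to 1977 to 2087 normalized CPM in the *Fnip1* null mice and 1303 to 1425 in the wildtype mice, with a positive log2 fold change for 6 of 6 genes. Connecting tubule markers summed to 2256 to 2992 against 1747 to 2029, positive for 4 of 4. The largest of them, *Klk1*, overlapped between the genotypes, at 1397, 1580 and 1336 against 1221 and 1400. The other 3 were above both wildtype mice in all *Fnip1* null mice, against 22.9% of all genes. The distal convoluted and connecting tubule lists share *Slc12a3*, *Wnk4*, *Klhl3*, *S100g* and *Klk1* with the pathway lists and none with the members. Proximal tubule sums ran the other way, at 7548 to 10503 against 10990 to 12507, with a negative value for 4 of 6 genes. By gene this list was split, with 3 markers separated from wildtype on the lower side and 2 on the higher side. The 2 higher ones were *Slc5a2* (469, 425 and 365 against 340 and 359) and *Slc5a12* (721, 571 and 457 against 398 and 355). The most abundant marker, *Slc34a1*, was on the lower side (5364, 4817 and 3960 against 5712 and 6341). The part of these segments in the higher values of *Trpv5*, *Trpv6*, *Calb1* and *Trpm6* was not tested, beyond the ratio to *Slc12a3*.

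Other cells also contributed RNA. Intercalated cell markers summed to 460 to 729 normalized CPM in the *Fnip1* null mice against 322 to 358 in the wildtype mice, podocyte markers to 658 to 773 against 367 to 370, and principal cell markers to 644 to 929 against 535 to 544. Of the 6 principal cell genes, 4 had a positive value and 2 a negative one. In all *Fnip1* null mice 3 were above both wildtype mice, against 22.9% of all genes, and *Avpr2* was below both. Endothelial marker sums were also higher in all *Fnip1* null mice (261 to 334 against 137 to 236). So were fibroblast (176 to 333 against 90.7 to 164) and smooth muscle sums (80.3 to 153 against 60.8 to 68.3). By gene, all *Fnip1* null mice were above both wildtype mice for 3 of 5, 3 of 4 and 2 of 4, respectively. The share of all genes was 22.9%, and the other genes of these lists overlapped. The leukocyte sums overlapped, at 110 to 236 against 107 to 128. Of the 8 leukocyte genes, 7 had a positive value. All *Fnip1* null mice were above both wildtype mice for 6 of them, against 22.9% of all genes. *Csf1r* was below both, at 38.2, 36.4 and 63.8 against 72.3 and 68.4 normalized CPM. The part of these cells in the members' values was not tested. Adipocyte markers summed to 209 in mouse 9210 and 72.6 in mouse 9121, against 4.66 to 10.2 in the wildtype mice and 5.48 in mouse 8637. Skeletal muscle markers were at 1.12 to 2.18 in all 5 mice, with *Tnnt3* at 0 in 4 of them. Mouse 9210 had the highest *Trpv5*, *Calb1*, *Slc8a1* and *Trpv6* values as well as the highest adipocyte sum, and *Trpv5* in mouse 8637, at 44.8 normalized CPM, stood beside an adipocyte sum inside the wildtype range. Whether adipocyte RNA had a part in these values was not tested.

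**Figure D5:**
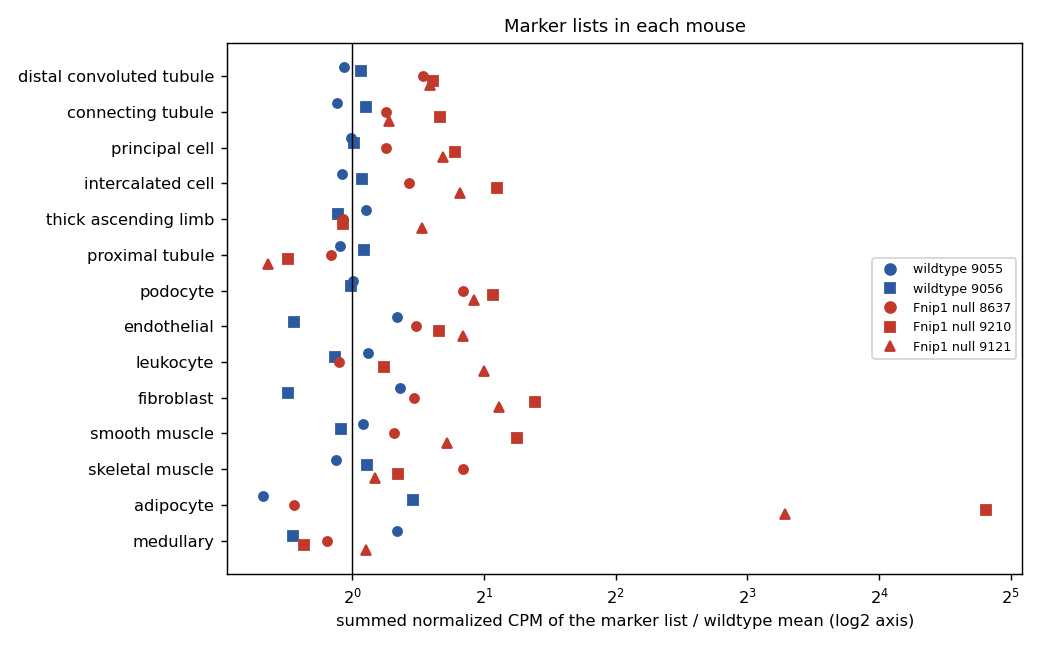
Summed normalized CPM of each cell type marker list divided by its wildtype mean (x axis, log2 scale) in the 3 *Fnip1* null (red) and 2 wildtype (blue) mice, with 1 point per mouse. Distal convoluted tubule, connecting tubule and podocyte sums are higher in all *Fnip1* null mice, proximal tubule sums are lower, and the adipocyte sum lies farthest to the right in mouse 9210, where it was 209 normalized CPM.

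The genes with a pattern most like that of *Trpv5*, the member with the widest range over the 5 mice, were *Sowahc*, *Rspo3* and *Wscd2* among 13256 genes compared. Their log2 normalized CPM, centred over the 5 mice, differed from that of *Trpv5* by a root mean square of 0.0661, 0.0766 and 0.0807. *Rspo3* had only 28, 40 and 33 counts in the *Fnip1* null mice and 11 and 14 in the wildtype mice. Its place in this order is therefore uncertain. *Sowahc* measured 53.3, 61.0 and 48.5 normalized CPM in the *Fnip1* null mice and 21.5 and 23.2 in the wildtype mice, close to *Trpv5* in level as well. The likeness is a description over 5 mice in 2 genotypes, which any gene with a change of about this size would share in part.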

How the data were processed

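RNA of cortical kidney tissue was sequenced by the authors as paired-end reads, aligned to UCSC mm10 with TopHat 2.1.0 and counted per gene symbol with HTSeq 0.6.1. The deposited values are raw counts, without normalization. The libraries analysed here are those of 3 *Fnip1* null and 2 wildtype mice; the text of the study gives 3 of each. The gene annotation and strand setting are not given in the sources used here, so reads of overlapping genes on opposite strands may not have been told apart. Reads that HTSeq did not assign to a gene were 39.0% to 42.8% of all reads tallied, mostly not uniquely aligned (28.3% to 31.4%), and were left out of library sizes.

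The software was edgeR 4.0.16 with limma 3.58.1, under R 4.3.3. Genes under 10 counts in more than 2 of 5 mice were not tested. After TMM normalization (factors 0.914 to 1.09), the quasi-likelihood test of edgeR compared *Fnip1* null with wildtype, with Benjamini-Hochberg adjustment over all 13874 genes tested. Adjusted p-values in the text are from this test unless another is named. A call needed an FDR of 5% and a 2-fold change. Errors are SD, and counting errors cover counting only. For the ratio to *Slc12a3*, 1 was added to each count, and genotypes were compared with a two-sided exact permutation test. Coordinates were matched by symbol to GENCODE M21 on GRCm38, and promoters are RefSeq windows on GRCm38.p6. The tests were tested on simulated data.

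The members, gene lists and marker lists were chosen with earlier results of these data known. Named pathway genes are those past the FDR and, per list with a mean of at least 1 CPM, the 2 with the largest positive and the 2 with the largest negative change; 2 of these genes are not reported here. The ratios of *Trpv5* to *Calb1*, *Slc8a1*, *S100g* and *Trpv6*, and the mention of untested *Slc8a2* and *Slc8a3*, were chosen after values were seen. Ratios to *Casr* and *Egf* were computed with them (two-sided exact permutation test, p = 0.1 for each, the smallest possible). Alternatives were the likelihood ratio and exact tests of edgeR, DESeq2 1.42.0, other scalings (library size only, RLE), other filters, the FDR alone, and leaving out each mouse. Their effect on the overlap of groups and the ratio to *Slc12a3* was added after seeing the data.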

Additional observations from a re-analysis of the deposited data

How the results depend on the processing

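With 74 genes called in all (56 higher, 18 lower), edgeR's exact test called 570, its likelihood ratio test 628, DESeq2 487 and the quasi-likelihood test without a filter 145. Leaving out 1 mouse gave 0 to 901 genes: 901 without mouse 8637, 137 without mouse 9121, and 0 without mouse 9210, 9055 or 9056, where 2048, 2460 and 1225 genes had an unadjusted quasi-likelihood p under 0.05. With library size only, 67 genes were higher and 10 lower, and the median log2 fold change of all genes moved to 0.17. *Trpv5* was called under each alternative except those without mouse 9210, 9055 or 9056, and its log2 fold change stayed between 1.11 and 1.43. The 1 member called became 2 with the likelihood ratio test (*Trpv6* added) and 0 to 2 with 1 mouse left out. The 1 other pathway gene called became 0 without a filter, where the log2 fold change of *Rragd* was 0.99, and 0 to 2 with 1 mouse left out. With 1 mouse left out, non-overlapping members (5 with all mice) numbered 5 to 7 and non-overlapping ratios to *Slc12a3* (5 with all mice) numbered 6 to 7. Any gene separates more easily with fewer mice, and the shares over all genes were not computed for these fits. The counts therefore cannot be set against a background.

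Signs changed for 3 of the named genes, whose log2 fold changes with all mice lay between -0.05 and 0.03. With library size only, log2 fold changes were 0.10 for *Atp2b1* and 0.16 for *Pvalb*. With 1 mouse left out, *Pvalb* ran from -0.33 to 0.39 and *Egf* from -0.079 to 0.12. The cause of these shifts was not tested. No paired analysis was possible because the labels give the genotypes no shared replicate numbers. Depth limits *Trpv6*, with 27 to 72 counts per mouse.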
